A study of Homo sapiens with 15 samples.

Results

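Described here are 34 genes for the synthesis of purine, pyrimidine and deoxynucleotides, the building blocks of RNA and DNA, in human breast epithelial cells kept at 5 glutamine concentrations. The members were taken as a list of gene symbols, matched to Ensembl identifiers, out of 62754 genes in the counts table. All 34 were counted well enough to enter the test, which covered 13828 genes. The 6 members whose enzymes take nitrogen from glutamine are PPAT, PFAS, GMPS, CAD, CTPS1 and CTPS2.

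The cells were MCF10A, an established non-tumour breast epithelial line, labelled wild type, and a single line stands for all groups. Cells in full medium had 2.5 mM glutamine, and the 4 limited groups had 0.28, 0.20, 0.12 or 0.04 mM in otherwise glutamine-free medium, with 3 biological replicates in each group and 15 libraries in all. All groups shared a growth medium with mammary epithelial supplements, cholera toxin and penicillin-streptomycin. How long glutamine was limited is not given in the sources used here. RNA was measured by sequencing of total RNA depleted of ribosomal RNA, so values are levels of transcripts and not of enzymes or nucleotides.

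Purine rings are built step by step on phosphoribosyl pyrophosphate (PRPP), and the finished product IMP is turned into AMP or GMP. Pyrimidine rings are built first and then joined to PRPP, giving UMP and, from it, CTP. Ribonucleotide reductase then removes an oxygen from ribonucleotides to make the deoxynucleotides used in DNA, and the thymidylate enzymes make the building block that is specific to DNA. Genes for the last steps are known to be transcribed mostly around S phase, when DNA is copied, whereas the ring-building steps serve RNA synthesis in all growing cells.

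Promoter sequences are shown for the deoxynucleotide genes RRM2, TK1, DUT, TYMS and DTYMK, which the results below turn on, and for the one stretch that a pair of members shares. The windows are the 250 bases before a RefSeq transcript start (GRCh38.p14). Such windows were found for 32 of the 34 members, 55 in all, and not for ADSL and IMPDH2. Both strands were searched for the CCAAT box (CCAAT), for 4 forms of the E2F motif (TTTCCCGC, TTTCGCGC, TTTGCCGC and TTTGGCGC), for the E-box bound by MYC (CACGTG) and for the CHR element (TTTGAA). RRM2 has 2 windows, TK1 has 2 and DUT has 4, and the stretches shown are from the window of each with the most matches. These windows precede a start that lies inside the annotated span of the gene. The other RRM2 window held 1 CCAAT box, the other TK1 window held 0, and the other DUT windows held 0 E2F forms. For RRM2, the 3 stretches of 30 bases lie at chr2:10122604-10122633, chr2:10122634-10122663 and chr2:10122661-10122690 on the plus strand, and capitals mark the CCAAT box.
RRM2 a: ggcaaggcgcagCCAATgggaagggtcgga
RRM2 b: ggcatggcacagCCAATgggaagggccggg
RRM2 c: ggggcaccaaagCCAATgggaagggccggg

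In the RRM2 stretches the CCAAT box was followed each time by the letters gggaaggg, and stretches b and c share a few bases at their ends. The TK1 stretches lie at chr17:78187112-78187141 and chr17:78187081-78187110 on the minus strand, where capitals mark ATTGG, which is CCAAT read on the opposite strand.
TK1 a: ggccgggcgctgATTGGccccatggcggcg
TK1 b: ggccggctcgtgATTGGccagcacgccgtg
The DUT stretches lie at chr15:48332144-48332173 and chr15:48332159-48332188 on the plus strand and overlap. Capitals mark an E2F form, which in stretch a is read on the opposite strand.
DUT a: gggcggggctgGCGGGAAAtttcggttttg
DUT b: gaaatttcggtTTTGGCGCgctccctgcgg
For TYMS the whole window at chr18:657403-657652 on the plus strand is shown, with 1 E2F form, read on the opposite strand, in capitals.
TYMS: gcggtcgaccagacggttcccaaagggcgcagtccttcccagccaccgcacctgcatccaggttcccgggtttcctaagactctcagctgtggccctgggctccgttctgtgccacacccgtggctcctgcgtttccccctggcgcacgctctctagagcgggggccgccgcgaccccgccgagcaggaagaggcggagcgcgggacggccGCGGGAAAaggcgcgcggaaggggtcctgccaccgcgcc
For DTYMK the whole window at chr2:241686816-241687065 on the minus strand is shown, with 2 CCAAT boxes in capitals.
DTYMK: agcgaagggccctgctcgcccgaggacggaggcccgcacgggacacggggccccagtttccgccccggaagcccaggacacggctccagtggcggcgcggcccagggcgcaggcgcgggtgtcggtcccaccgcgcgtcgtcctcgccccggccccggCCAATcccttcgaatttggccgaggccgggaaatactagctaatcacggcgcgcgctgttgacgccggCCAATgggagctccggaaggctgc

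Of the 55 member windows 14 (25.5%) held a CCAAT box, against 32.01% of all 35116 windows of the same length. They belong to CAD, DHODH, DTYMK, GART, NME1, PRPS1, PRPSAP2, RRM1, RRM2, TK1 and UCK2. Among these only DTYMK, NME1, RRM2 and TK1 fell in the fit with the replicate block given further on. E2F forms were in 4 (7.27%), those of DUT, GART, PRPS2 and TYMS, against 2.79% of all windows. The E-box was in 3 (5.45%), those of ATIC, DHODH and PPAT, against 6.34%. The CHR element was in 6 (10.9%), those of ADSS2, DUT, PRPSAP1, PRPSAP2, RRM1 and UMPS, against 13.3%. PPAT and PAICS encode the first enzyme and a later enzyme of purine synthesis. They lie on opposite strands, and their annotated spans overlap (chr4:56393362-56435615 and chr4:56410507-56464578). The PAICS window at chr4:56435502-56435751 points away from PPAT and shares 136 bases with the PPAT window, while the other PAICS windows share 0. That stretch, chr4:56435616-56435751, is shown on the plus strand with no capitals.
PPAT and PAICS shared: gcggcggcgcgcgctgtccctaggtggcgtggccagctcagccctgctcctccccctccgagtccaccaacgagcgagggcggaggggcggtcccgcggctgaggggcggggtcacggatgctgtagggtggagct
A match describes the letters only, and no binding was measured.

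The libraries held 3704170 to 13361406 gene counts, and same-numbered libraries of different groups deviated from their group means together, so a second fit took the replicate number as a block. All 10 markers of MCF10A epithelium were expressed (summed level 18404 to 31899 CPM, that is counts scaled to each library's TMM-adjusted total), and the luminal hormone receptor genes ESR1 and PGR together reached at most 0.7545 CPM. The 5 fibroblast markers summed to 33.2 to 45.7 CPM in full medium and 50.4 to 61.0 CPM at 0.04 mM, with LUM at 0 in all libraries, and DCN (a log2 change of 0.62, adjusted p = 0.00108) and COL1A1 (0.46, adjusted p = 0.0193) rose at 0.04 mM. Immune markers summed to at most 2.86 CPM with CD3E at 0, and the endothelial markers, with CDH5 at 0, to 3.34 to 5.56 CPM in full medium and 4.92 to 11.9 CPM at 0.04 mM, where PECAM1 rose (a log2 change of 0.81, adjusted p = 0.0136). The part of these markers in the members' changes was not tested. In 2 libraries, replicate 3 at 0.04 mM and at 0.12 mM, mitochondrial ribosomal RNA took 2.97 and 1.62% of the counts. Without these libraries 7 members fell at 0.04 mM in place of the 11 given next, and the members that fell at 0.12 mM changed as well.

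With the replicate block, 11 of the 34 members fell and 1 rose at 0.04 mM against full medium, where 6.23% of all genes tested fell and 7.21% rose. At 0.20 mM 9 fell and 1 rose, against 7.15% and 7.67% of all genes. At 0.12 mM 6 fell and 0 rose (3.9% and 4.41% of all genes), and at 0.28 mM 2 fell and 0 rose (0.846% and 1.23%). A gene is said to fall or rise where edgeR's quasi-likelihood test gave a Benjamini-Hochberg adjusted p under 0.05 over all genes tested. The members' median log2 change was -0.1552 at 0.04 mM, -0.1386 at 0.12 mM, -0.1371 at 0.20 mM and -0.097 at 0.28 mM, while the median of all genes was between 0.0001 and 0.0064. All 4 comparisons use the same full medium libraries, so they are not independent of one another. Single libraries moved these counts: at 0.04 mM 4 fell without 0.04 mM replicate 2 and 6 without full medium replicate 3, at 0.12 mM 2 fell without full medium replicate 3 and 11 without full medium replicate 1, and at 0.20 mM 5 fell without 0.20 mM replicate 1 and 4 without full medium replicate 3. At 0.28 mM 0 fell without 0.28 mM replicate 1 or 3 or full medium replicate 3, 1 without full medium 2, 3 without 0.28 mM replicate 2 and 9 without full medium 1. The 1 rising at 0.04 mM became 0 without 0.04 mM replicate 2 or 3 or full medium replicate 1 or 2, and 2 without full medium 3, and the 1 at 0.20 mM became 0 without replicate 1 of either group and 2 without full medium 3. At 0.12 mM 1 rose without full medium 3.

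Without the block, 0 members passed edgeR's test in any comparison, and 0 passed DESeq2. At 0.04 mM that fit called 0% of all genes as falling and 0.0434% as rising, and 8 members had an unadjusted p under 0.05, 7 of them lower, where 1609 of the 13828 genes had one. The corresponding counts were 4 members and 1111 genes at 0.12 mM, 6 and 1415 at 0.20 mM, and 2 and 616 at 0.28 mM. The smallest adjusted p without the block was 0.228, for DTYMK at 0.04 mM. Every call below therefore comes from the fit with the block, TMM scaling and all libraries, unless another setting is named. Scaling to the ERCC spike-ins, RNAs added in a fixed amount, instead of TMM left 0 members falling at 0.04 mM, 12 at 0.12 mM, 1 at 0.20 mM and 2 at 0.28 mM, where 224, 1130, 280 and 102 of all genes fell. Under that scaling the median of all genes was 0.0005 at 0.04 mM, -0.1768 at 0.12 mM, -0.0448 at 0.20 mM and -0.1293 at 0.28 mM, and the members' median -0.1642, -0.3225, -0.1898 and -0.232. At 0.04 mM the log2 changes of the genes that lost their call were close to those under TMM, such as -0.40, adjusted p = 0.0539 for DTYMK, -0.36, adjusted p = 0.119 for TK1 and -0.32, adjusted p = 0.129 for RRM2.

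**Figure D1:**
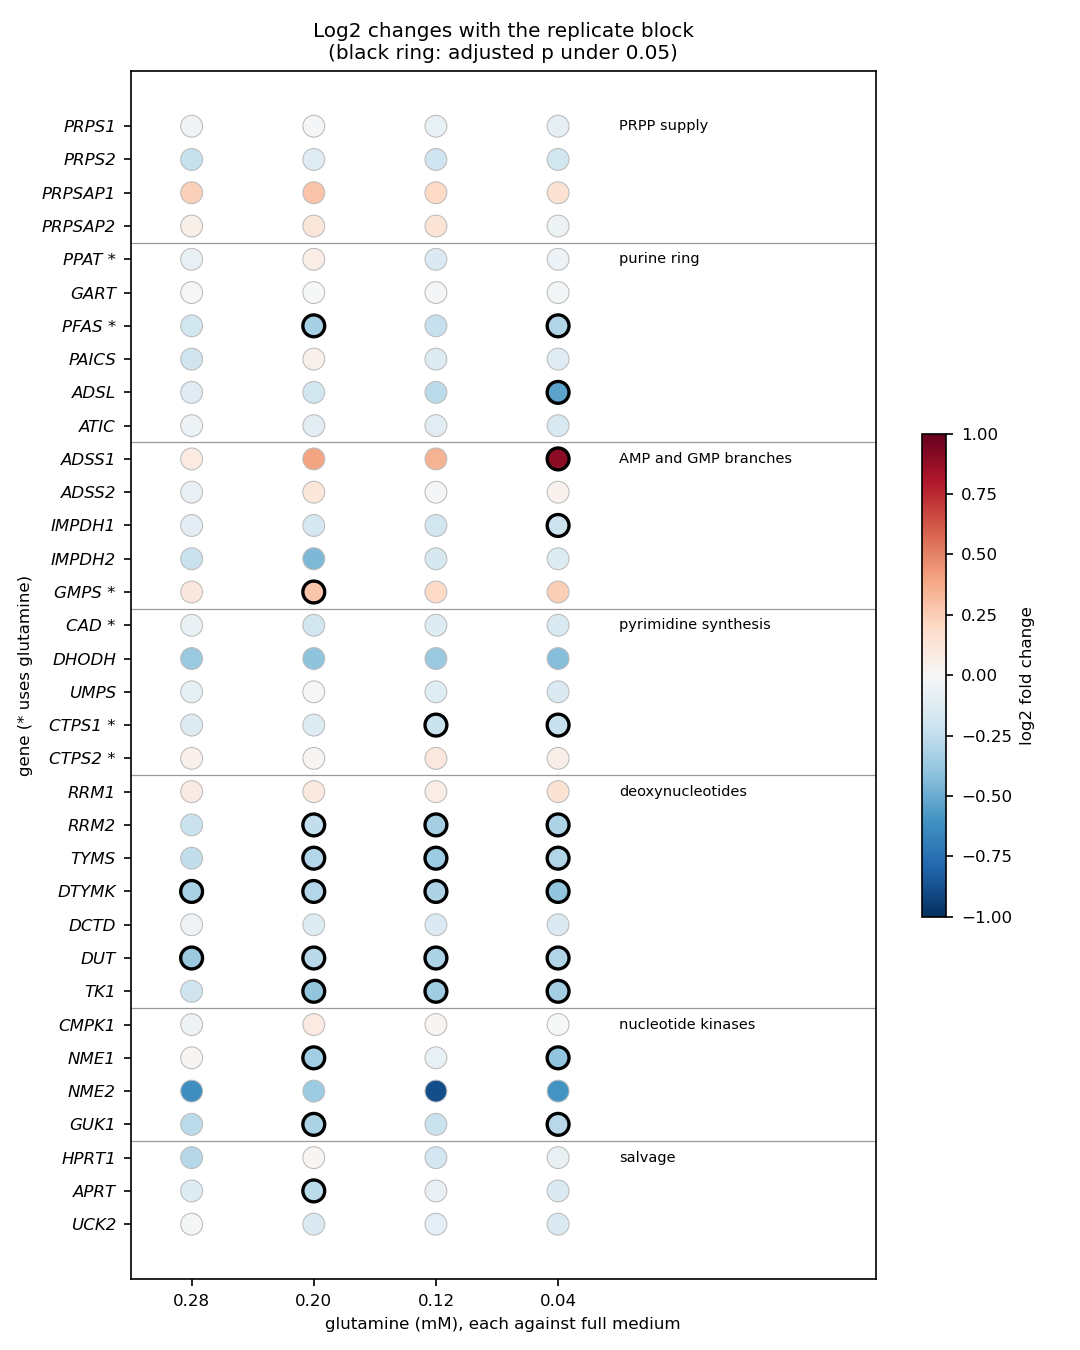
Log2 fold change of each of the 34 members (rows, grouped by role, with an asterisk on those that use glutamine) in each limited group against full medium (columns), from the fit with the replicate block. Black rings mark adjusted p under 0.05. The rings gather among the deoxynucleotide genes, where 5 of 7 members fell at 0.04, 0.12 and 0.20 mM.

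In the plot of changes by gene, 20 of the 34 members have no ring in any column. DTYMK and DUT fell in 4 of the 4 limited groups. RRM2, TYMS and TK1 fell in 3 groups, and PFAS, CTPS1, NME1 and GUK1 in 2. ADSL, IMPDH1 and APRT fell in 1 group, and ADSS1 and GMPS rose in 1.

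Among the 7 deoxynucleotide genes, 5 fell at each of 0.04, 0.12 and 0.20 mM and 2 at 0.28 mM, and 0 rose. RRM2 (ENSG00000171848, chr2:10122568-10211010, plus strand) encodes the small subunit of ribonucleotide reductase, whose level is known to follow S phase. It stood at 358, 388 and 296 CPM in full medium (replicates 1, 2 and 3), at 319, 326 and 209 CPM at 0.04 mM and at 328, 301 and 204 CPM at 0.12 mM. The groups overlapped, because replicate 3 was the lowest in each of them, but each limited library was below the full medium library of its own number. RRM2 fell at 0.04 mM (log2 change -0.31, SE 0.0701, adjusted p = 0.00344), at 0.12 mM (-0.34, adjusted p = 0.00201) and at 0.20 mM (-0.25, adjusted p = 0.0147), and had -0.22, adjusted p = 0.0791 at 0.28 mM. Its exons overlap another annotated gene over 20.2% of their length, so its counts are uncertain to that extent. With the 2 compared groups fitted alone, RRM2 lost its calls at 0.12 mM (-0.35, adjusted p = 0.0722) and 0.20 mM (-0.25, adjusted p = 0.055). The call at 0.20 mM was lost without 0.20 mM replicate 2 (-0.20, adjusted p = 0.104) or 3 (-0.25, adjusted p = 0.0509) or full medium replicate 3 (-0.16, adjusted p = 0.118), and RRM2 was called at 0.28 mM without full medium replicate 1 (-0.31, adjusted p = 0.00443).

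RRM1 (ENSG00000167325, chr11:4094685-4138932, plus strand), the large subunit of the same enzyme, stood at 158, 203 and 192 CPM in full medium and 196, 222 and 191 CPM at 0.04 mM. Its groups overlapped, and no call was made at any concentration (0.14, adjusted p = 0.224 at 0.04 mM) with all libraries. Without full medium replicate 3 it was called higher at 0.04 mM (0.25, adjusted p = 0.0241) and 0.20 mM (0.21, adjusted p = 0.0489). The ratio of RRM2 to RRM1 levels was 2.27, 1.91 and 1.54 in full medium and 1.63, 1.46 and 1.09 at 0.04 mM. In 12 of 12 limited libraries this ratio was below that of the full medium library with the same number. The ratio was chosen after the values were seen and is a description with no test.

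TYMS (ENSG00000176890, chr18:657653-673578, plus strand) encodes thymidylate synthase, which makes dTMP from dUMP. Its level was 141, 164 and 134 CPM in full medium, 123, 129 and 91.6 CPM at 0.12 mM and 123, 138 and 98.1 CPM at 0.04 mM. At 0.12 and 0.20 mM no limited library reached the lowest full medium library, and at 0.04 mM replicate 2 did. TYMS fell at 0.04 mM (-0.30, SE 0.0727, adjusted p = 0.00578), 0.12 mM (-0.36, adjusted p = 0.00162) and 0.20 mM (-0.30, adjusted p = 0.00453), with -0.24, adjusted p = 0.0585 at 0.28 mM. Antisense genes, ENOSF1 and TYMSOS, cover 46.6% of its exons, and the strand rule of the counting is not given in the sources used here, so its counts are uncertain. These 3 calls held without any single library of the compared groups, and without full medium replicate 1 TYMS was also called at 0.28 mM (-0.32, adjusted p = 0.00547).

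DTYMK (ENSG00000168393, chr2:241675747-241686815, minus strand), the kinase that phosphorylates dTMP, stood at 93.4, 103 and 91.6 CPM in full medium and at 76.9, 72.97 and 68.6 CPM at 0.04 mM. At 0.28 mM it stood at 74.7, 89.1 and 67.6 CPM, and neither of these limited groups overlapped full medium. It fell at 0.04 mM (-0.40, SE 0.082, adjusted p = 0.00136), 0.12 mM (-0.31, adjusted p = 0.0136), 0.20 mM (-0.29, adjusted p = 0.0105) and 0.28 mM (-0.32, adjusted p = 0.0242). No other gene annotated in GENCODE 29 overlaps its exons. The call at 0.04 mM held without any single library of the compared groups. At 0.12 mM it was lost without 0.12 mM replicate 2 (-0.24, adjusted p = 0.125) or full medium 3 (-0.27, adjusted p = 0.068). At 0.20 mM it was lost without 0.20 mM replicate 1 (-0.28, adjusted p = 0.0639) or 3 (-0.25, adjusted p = 0.0788) or full medium 3 (-0.25, adjusted p = 0.0513), and with an offset per library fitted on each gene's GC content and transcript length, the GC and length offset (-0.17, adjusted p = 0.192). At 0.28 mM it was lost without 0.28 mM replicate 1 (-0.29, adjusted p = 0.172) or 3 (-0.29, adjusted p = 0.232) or full medium 2 (-0.33, adjusted p = 0.0857) or 3 (-0.28, adjusted p = 0.125). With libraries thinned to equal depth DTYMK lost its calls at 0.12 mM (-0.28, adjusted p = 0.0792), 0.20 mM (-0.20, adjusted p = 0.194) and 0.28 mM (-0.31, adjusted p = 0.101). The call at 0.12 mM was also lost with the 2 compared groups alone (-0.31, adjusted p = 0.0863).

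DUT (ENSG00000128951, chr15:48331095-48343373, plus strand) encodes dUTPase, which keeps uracil out of DNA and supplies dUMP to thymidylate synthase. It stood at 106, 121 and 121 CPM in full medium, 83.4, 104 and 81.9 CPM at 0.28 mM and 91.1, 98.9 and 91.9 CPM at 0.04 mM. Full medium lay above every library of the 0.28, 0.12 and 0.04 mM groups, and replicate 2 at 0.20 mM overlapped it. DUT fell at 0.28 mM (-0.37, SE 0.0755, adjusted p = 0.00799), 0.20 mM (-0.28, adjusted p = 0.0108), 0.12 mM (-0.32, adjusted p = 0.00782) and 0.04 mM (-0.30, adjusted p = 0.00832). An antisense gene covers 14.5% of its exons. Each of these calls was lost without full medium replicate 3, where DUT had -0.29, adjusted p = 0.0761 at 0.28 mM, -0.20, adjusted p = 0.0982 at 0.20 mM, -0.24, adjusted p = 0.0737 at 0.12 mM and -0.22, adjusted p = 0.0711 at 0.04 mM. The calls were also lost without 0.28 mM replicate 1 (-0.35, adjusted p = 0.0755) or 3 (-0.34, adjusted p = 0.132), 0.20 mM replicate 1 (-0.25, adjusted p = 0.0809), 0.12 mM replicate 3 (-0.27, adjusted p = 0.0562) and 0.04 mM replicate 2 (-0.26, adjusted p = 0.0781), each at its own concentration. With the 2 compared groups alone DUT lost its call at 0.12 mM (-0.33, adjusted p = 0.0834).

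TK1 (ENSG00000167900, chr17:78174079-78187204, minus strand), the thymidine salvage kinase of dividing cells, stood at 71.2, 88.4 and 82.8 CPM in full medium and 66.03, 66.5 and 52.1 CPM at 0.20 mM. All 3 libraries at 0.20 mM were below full medium, and so were the 3 at 0.04 mM (65.5, 70.97 and 53.8 CPM). TK1 fell at 0.20 mM (-0.39, SE 0.0888, adjusted p = 0.00293), 0.12 mM (-0.36, adjusted p = 0.0111) and 0.04 mM (-0.35, adjusted p = 0.0105) and had -0.21, adjusted p = 0.226 at 0.28 mM. The GC and length offset ended all 3 calls (-0.24, adjusted p = 0.127 at 0.20 mM, -0.28, adjusted p = 0.0662 at 0.12 mM and -0.26, adjusted p = 0.0838 at 0.04 mM). The call at 0.20 mM held without any single library, that at 0.12 mM was lost without 0.12 mM replicate 3 (-0.29, adjusted p = 0.0742) or full medium 3 (-0.22, adjusted p = 0.128), and that at 0.04 mM without full medium 3 (-0.21, adjusted p = 0.116). With the 2 compared groups alone the call at 0.12 mM was lost as well (-0.36, adjusted p = 0.0946). TK1 was called without full medium replicate 1 at 0.28 mM (-0.34, adjusted p = 0.0143). DCTD, which deaminates dCMP to dUMP, went from 108 ± 6.77 CPM to 97.3 ± 10.7 CPM at 0.04 mM (SD, n = 3) and was not called there (-0.15, adjusted p = 0.17) or elsewhere.

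**Figure D2:**
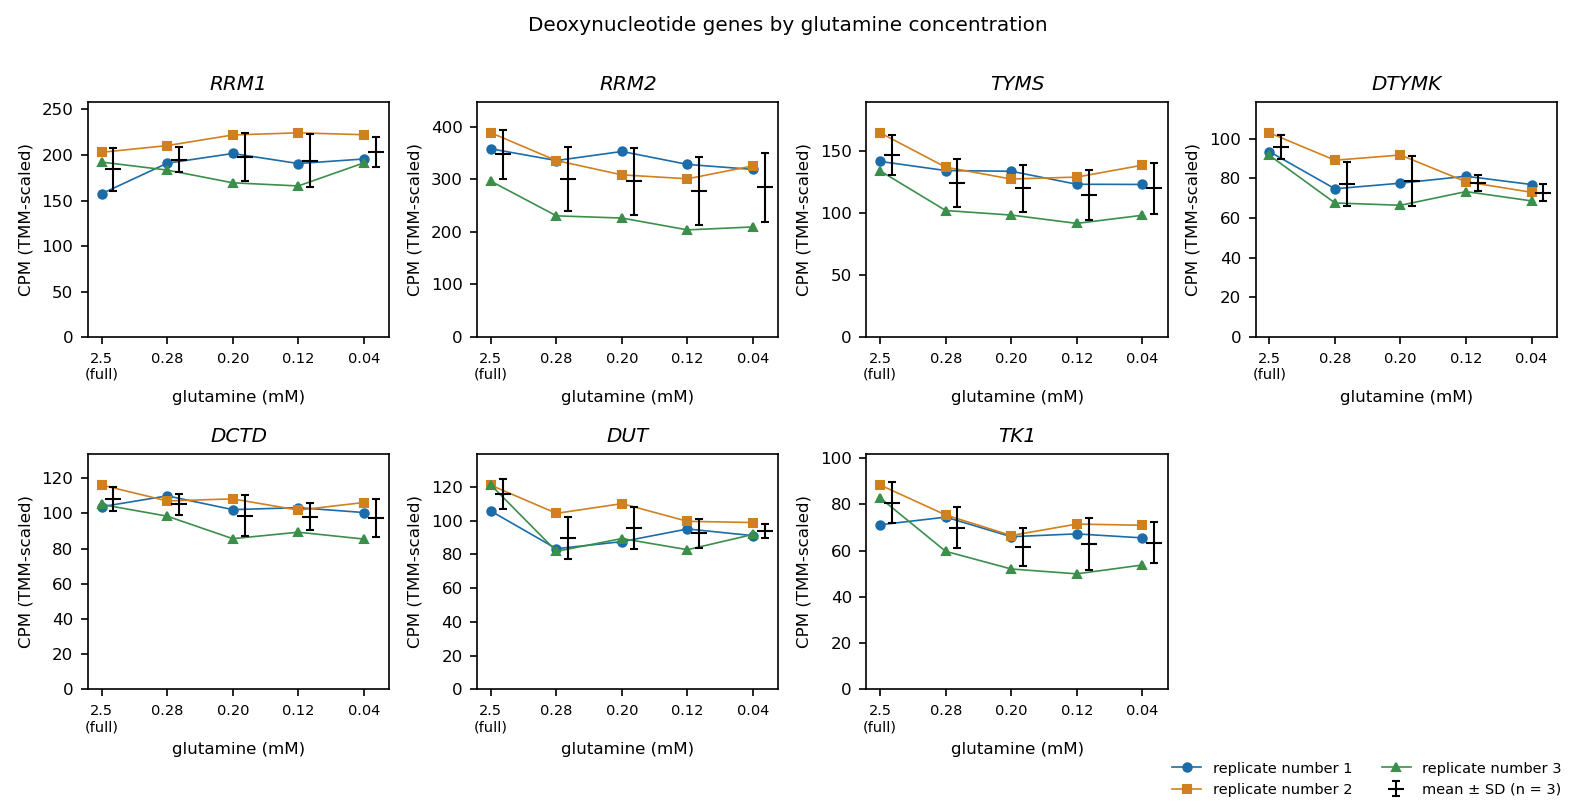
Level in CPM (linear axis from 0) of the 7 deoxynucleotide genes at each glutamine concentration, with 1 line per replicate number and the group mean ± SD (n = 3) in black. DTYMK at 0.04 mM lies at 76.9, 72.97 and 68.6 CPM, below all 3 full medium libraries, and the green line of replicate number 3 is the lowest of the limited libraries for RRM2, TYMS and TK1.

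The size of these differences was not the same within each replicate number. For TK1 the mean of the 4 limited libraries differed from full medium by -4.02% with number 1, -19.5% with number 2 and -34.95% with number 3. RRM2 had -6.72%, -18.2% and -26.6%, and TYMS had -9.22%, -19.2% and -27.2%. DTYMK was the most even of these 5 genes, with -16.99%, -19.3% and -24.7%, and DUT had -15.5%, -14.7% and -28.6%. The limited libraries below full medium of the same number were 12 of 12 for RRM2, TYMS, DTYMK and DUT and 11 of 12 for TK1. Such counts, here and for other genes, set 4 limited libraries against each of 3 full medium libraries. The 12 comparisons are therefore not independent, and the share of all genes with such counts was not determined.

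Leaving out replicate number 3 in all groups left DTYMK as the called deoxynucleotide gene at 0.04 mM and 0 called at the other concentrations. At 0.04 mM RRM2 then had -0.20, adjusted p = 0.138, TYMS -0.22, adjusted p = 0.11, DUT -0.24, adjusted p = 0.0866 and TK1 -0.21, adjusted p = 0.169.

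Of 25 other genes of S phase, none of them a member, 15 fell and 0 rose at 0.04 mM, with a median of -0.2457 against 0.0064 for all genes. MCM2, a subunit of the replicative helicase, fell from 232 ± 28.6 to 155 ± 26.2 CPM (-0.59, SE 0.0943, adjusted p = 9.29e-05). LIG1, which joins the ends of new DNA fragments, fell from 84.6 ± 3.72 to 60.8 ± 7.37 CPM (-0.47, SE 0.0787, adjusted p = 0.000146). The summed level of the S phase genes was 2893, 3136 and 2977 CPM in full medium and 2703, 2632 and 2119 CPM at 0.04 mM, so no limited library at 0.04 mM reached full medium, and replicate 3 was the lowest. Of the 25, 13 fell at 0.12 mM, 12 at 0.20 mM and 5 at 0.28 mM. In these bulk libraries fewer cells in S phase and less RNA per cell cannot be told apart, and the part that the S phase share had in the deoxynucleotide changes was not tested.

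Of the 6 genes that build the purine ring, 2 fell and 0 rose at 0.04 mM. PFAS (ENSG00000178921, chr17:8247608-8270486, plus strand), which adds a nitrogen from glutamine to the growing ring, stood at 117, 117 and 133 CPM in full medium, 101, 92.5 and 99.2 CPM at 0.20 mM and 115, 87.4 and 95.1 CPM at 0.04 mM. In each of the 4 limited groups every library of PFAS was below every full medium library. PFAS fell at 0.20 mM (-0.33, SE 0.0812, adjusted p = 0.00567) and 0.04 mM (-0.30, SE 0.0839, adjusted p = 0.0153), with -0.23, adjusted p = 0.0753 at 0.12 mM and -0.19, adjusted p = 0.224 at 0.28 mM. The call at 0.04 mM was lost without 0.04 mM replicate 2 (-0.22, adjusted p = 0.162) or 3 (-0.27, adjusted p = 0.0655) or full medium replicate 3 (-0.21, adjusted p = 0.117), and that at 0.20 mM without full medium replicate 3 (-0.24, adjusted p = 0.0607) or with the GC and length offset (-0.24, adjusted p = 0.0699). PFAS was called without full medium replicate 1 at 0.12 mM (-0.32, adjusted p = 0.0146) and 0.28 mM (-0.28, adjusted p = 0.0463).

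ADSL (ENSG00000239900, chr22:40346500-40387527, plus strand), the lyase that acts both in ring building and on the way to AMP, had 11.5, 15.7 and 12.4 CPM in full medium and 8.85, 8.60 and 9.998 CPM at 0.04 mM, with no overlap. It fell at 0.04 mM (-0.54, SE 0.178, adjusted p = 0.0416), but 18.9% of its exons overlap another gene, its counts over all 15 libraries came to 1547, and the call was lost without any one library at 0.04 mM (-0.56, adjusted p = 0.112, -0.52, adjusted p = 0.142 and -0.54, adjusted p = 0.0858 without replicates 1, 2 and 3) or without full medium replicate 2 (-0.32, adjusted p = 0.316). PPAT, which commits PRPP to purine synthesis using glutamine, stood at 44.8, 60.4 and 56.8 CPM in full medium and 50.04, 54.1 and 48.6 CPM at 0.04 mM. The groups overlapped and PPAT was not called at any concentration (-0.06, adjusted p = 0.734 at 0.04 mM). PAICS, which shares the promoter stretch shown above with PPAT, had 344, 515 and 466 CPM in full medium and 378, 430.4 and 399.9 CPM at 0.04 mM (-0.12, adjusted p = 0.305).

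PAICS and PPAT both had their lowest full medium level in replicate 1. Without that library PAICS was called at 0.04 mM (-0.22, adjusted p = 0.0257), 0.12 mM (-0.23, adjusted p = 0.0217) and 0.28 mM (-0.30, adjusted p = 0.00578). GART, a single protein with several ring-building activities, held between 245 and 281 CPM over all 15 libraries, and its 4 log2 changes lay between -0.0292 and 0.0022. ATIC, which closes the ring, was below all full medium libraries at 0.04, 0.12 and 0.20 mM (203, 196 and 206 CPM in full medium, 178, 184 and 181 CPM at 0.04 mM), but was not called (-0.16, adjusted p = 0.0894 at 0.04 mM).

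In the branches from IMP to AMP and GMP, ADSS1 rose at 0.04 mM and GMPS at 0.20 mM, and IMPDH1 fell at 0.04 mM. GMPS (ENSG00000163655, chr3:155869430-155944020, plus strand), the synthetase that uses glutamine to make GMP, had 109.6, 172 and 165 CPM in full medium and 176, 189.5 and 167 CPM at 0.20 mM. Replicate 1 of full medium was far below the other full medium libraries, which overlapped the 0.20 mM group. GMPS rose at 0.20 mM (0.27, SE 0.0819, adjusted p = 0.0218), and at 0.04 mM it had 0.24, adjusted p = 0.0507. Within replicate numbers, the limited libraries differed from full medium by 43.9% for number 1, 8.76% for number 2 and -0.0830% for number 3. Without full medium replicate 1 its value at 0.20 mM was 0.13, adjusted p = 0.258, without 0.20 mM replicate 1 0.18, adjusted p = 0.24, and with the GC and length offset 0.12, adjusted p = 0.371. Without full medium replicate 3 it was called at 0.04 mM (0.35, adjusted p = 0.00809) and 0.12 mM (0.31, adjusted p = 0.0298).

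IMPDH1 (ENSG00000106348, chr7:128392277-128409982, minus strand), an isozyme of the step that commits IMP to GMP, stood at 177, 165 and 160.3 CPM in full medium and 172, 141 and 121 CPM at 0.04 mM. The groups overlapped through replicate 1. It fell at 0.04 mM (-0.22, SE 0.0721, adjusted p = 0.0403), a call lost without 0.04 mM replicate 2 (-0.18, adjusted p = 0.211) or 3 (-0.20, adjusted p = 0.118) or full medium replicate 3 (-0.13, adjusted p = 0.268) and with the GC and length offset (-0.16, adjusted p = 0.162). Without full medium replicate 1 it was called at 0.12 mM (-0.26, adjusted p = 0.0225) and 0.20 mM (-0.24, adjusted p = 0.0262) as well.

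ADSS1 (ENSG00000185100, chr14:104724229-104747325, plus strand), known as the muscle isozyme of adenylosuccinate synthase, was scarce, with 3.32, 2.05 and 2.84 CPM in full medium and 4.66, 3.84 and 7.84 CPM at 0.04 mM. All 3 libraries at 0.04 mM were above full medium, and replicate 3, which held 2.97% mitochondrial ribosomal RNA, was the highest. ADSS1 rose at 0.04 mM (0.90, SE 0.306, adjusted p = 0.0475) on a total of 474 counts over 15 libraries. The call was lost without 0.04 mM replicate 2 (0.96, adjusted p = 0.0931) or 3 (0.57, adjusted p = 0.284), and without full medium replicate 1, 2 or 3 (0.94, adjusted p = 0.0801, 0.83, adjusted p = 0.131, and 0.91, adjusted p = 0.0877). ADSS2, the general isozyme, had 0.04, adjusted p = 0.776 at 0.04 mM. IMPDH2 was counted at only 621 over all libraries and was not called (-0.14, adjusted p = 0.768 at 0.04 mM).

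Of the 5 pyrimidine synthesis genes, CTPS1 fell at 0.04 and 0.12 mM and the other 4 were not called. CTPS1 (ENSG00000171793, chr1:40979696-41012565, plus strand), the main CTP synthase of dividing cells, takes its nitrogen from glutamine. It stood at 175, 176 and 172 CPM in full medium, 164, 151 and 135 CPM at 0.12 mM and 153, 157 and 137 CPM at 0.04 mM, and neither limited group overlapped full medium. CTPS1 fell at 0.04 mM (-0.23, SE 0.0683, adjusted p = 0.022) and 0.12 mM (-0.22, SE 0.0672, adjusted p = 0.037). With the 2 compared groups alone it lost its calls at 0.04 mM (-0.23, adjusted p = 0.0836) and 0.12 mM (-0.22, adjusted p = 0.223). At 0.04 mM the call was lost without 0.04 mM replicate 1 (-0.20, adjusted p = 0.13) or 2 (-0.26, adjusted p = 0.0513) or full medium replicate 3 (-0.16, adjusted p = 0.13). At 0.12 mM it was lost without any one library of that group (-0.25, adjusted p = 0.0655, -0.20, adjusted p = 0.13, and -0.21, adjusted p = 0.107 without replicates 1, 2 and 3) and without full medium replicate 2 (-0.23, adjusted p = 0.0699) or 3 (-0.15, adjusted p = 0.202).

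CAD, the protein that carries the first steps of pyrimidine synthesis and starts from glutamine, had 393, 339 and 364 CPM in full medium and 388, 306 and 295 CPM at 0.04 mM (-0.16, adjusted p = 0.144). The CAD groups overlapped through replicate 1, and without full medium replicate 1 CAD was called at 0.20 mM (-0.23, adjusted p = 0.0279). DHODH, the mitochondrial enzyme that makes the pyrimidine ring aromatic, had 15.2, 15.2 and 18.2 CPM in full medium and 12.02, 10.8 and 12.7 CPM at 0.04 mM. Its groups did not overlap at 0.04, 0.20 and 0.28 mM, and 12 of 12 limited libraries were below full medium of their number. DHODH was not called at any concentration (-0.43, SE 0.159, adjusted p = 0.07 at 0.04 mM). It was called without 0.20 mM replicate 2 (-0.57, adjusted p = 0.0278 at 0.20 mM), with libraries thinned to equal depth (-0.70, adjusted p = 0.0227 at 0.04 mM) and with ERCC scaling (-0.56, adjusted p = 0.0272 at 0.12 mM). UMPS, which ends the pathway at UMP, had -0.15, adjusted p = 0.224 and CTPS2 0.07, adjusted p = 0.765 at 0.04 mM. UMPS was called without full medium replicate 1 at 0.04 mM (-0.25, adjusted p = 0.0424).

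**Figure D3:**
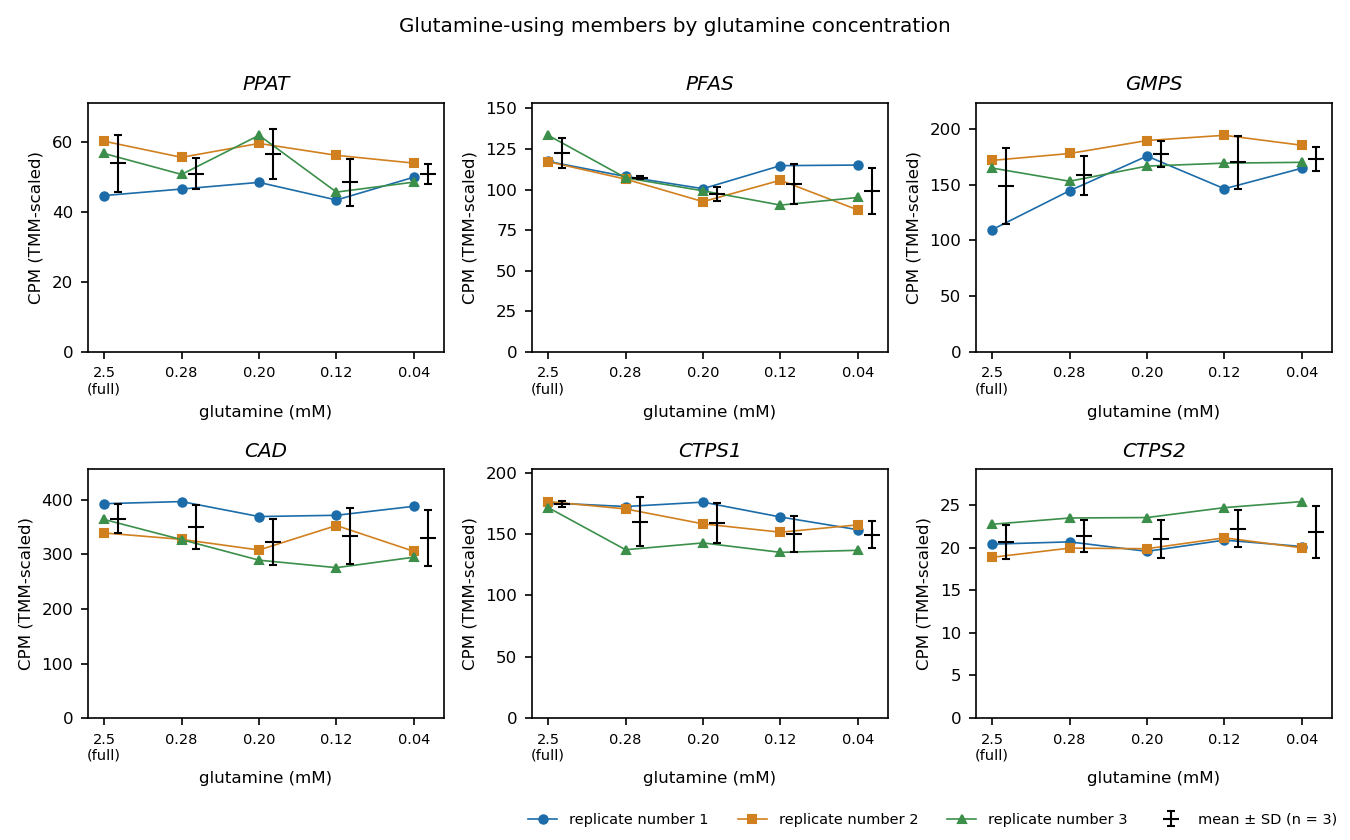
Level in CPM (linear axis from 0) of the 6 members that use glutamine, by glutamine concentration, with 1 line per replicate number and the group mean ± SD (n = 3) in black. PFAS and CTPS1 at 0.04 mM lie below all full medium libraries, and full medium replicate 1 of GMPS, at 109.6 CPM, lies apart from the other full medium libraries.

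The 6 members that use glutamine had 2 falls and 0 rises at 0.04 mM, with a median log2 change of -0.107, and the other 28 members had 9 falls and 1 rise, with a median of -0.1552. At 0.12 mM 1 of the 6 and 5 of the 28 fell. At 0.20 mM 1 of the 6 fell and 1 rose, against 8 and 0 of the 28. At 0.28 mM 0 of the 6 and 2 of the 28 fell. The difference between these groups of members was not tested.

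Among the 4 nucleotide kinases, NME1 and GUK1 fell at 0.04 and 0.20 mM. NME1 (ENSG00000239672, chr17:51153559-51162168, plus strand), a nucleoside diphosphate kinase, stood at 77.8, 69.7 and 66.1 CPM in full medium, 59.7, 55.8 and 52.5 CPM at 0.20 mM and 67.6, 43.9 and 49.99 CPM at 0.04 mM. The 0.20 mM group did not overlap full medium, while replicate 1 at 0.04 mM lay within it. NME1 fell at 0.04 mM (-0.40, SE 0.101, adjusted p = 0.0074) and 0.20 mM (-0.35, SE 0.0963, adjusted p = 0.0137), with -0.08, adjusted p = 0.673 at 0.12 mM and 0.02, adjusted p = 0.947 at 0.28 mM. The call at 0.04 mM was lost without 0.04 mM replicate 2 (-0.29, adjusted p = 0.111) or full medium replicate 2 (-0.35, adjusted p = 0.0509). At 0.20 mM it was lost without replicate 1 (-0.30, adjusted p = 0.102) or 3 (-0.34, adjusted p = 0.0547) of that group or full medium 2 (-0.30, adjusted p = 0.0746).

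Read-through transcripts annotated as NME1-NME2 cover 18.6% of the NME1 exons and 22.9% of those of NME2, so the split between these neighbours is uncertain. NME2, with 378 counts over all libraries, was at 3.05, 4.53 and 3.49 CPM in full medium and 3.82, 2.00 and 1.08 CPM at 0.04 mM and was not called (-0.60, SE 0.336, adjusted p = 0.254). At 0.12 mM it had -0.88, adjusted p = 0.0982, and it was called there without full medium replicate 1 (-1.29, adjusted p = 0.0159).

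GUK1 (ENSG00000143774, chr1:228140084-228148955, plus strand), the guanylate kinase that turns GMP into GDP, stood at 396, 373 and 289 CPM in full medium, 332, 297 and 225 CPM at 0.20 mM and 322, 303 and 248 CPM at 0.04 mM. The groups overlapped, with replicate 3 the lowest in these 3 groups, and 12 of 12 limited libraries were below full medium of their number. GUK1 fell at 0.20 mM (-0.31, SE 0.0769, adjusted p = 0.00552) and 0.04 mM (-0.28, SE 0.078, adjusted p = 0.016). At 0.20 mM the call was lost with the GC and length offset (-0.19, adjusted p = 0.101). At 0.04 mM it was lost without 0.04 mM replicate 1 (-0.24, adjusted p = 0.096) or 2 (-0.29, adjusted p = 0.0591) or full medium replicate 2 (-0.25, adjusted p = 0.0769). It was called at 0.12 mM without 0.12 mM replicate 3 (-0.33, adjusted p = 0.0149), and at 0.28 mM without 0.28 mM replicate 2 (-0.36, adjusted p = 0.03) or full medium replicate 1 (-0.29, adjusted p = 0.035). CMPK1, which phosphorylates UMP and CMP, had -0.01, adjusted p = 0.977 at 0.04 mM and was not called elsewhere.

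Of the 3 salvage genes, APRT fell at 0.20 mM. APRT (ENSG00000198931, chr16:88809339-88811928, minus strand), which recycles adenine with PRPP, stood at 163, 145 and 117 CPM in full medium and 138, 129 and 88.4 CPM at 0.20 mM (-0.27, SE 0.0686, adjusted p = 0.00757). The groups overlapped because replicate 3 was lowest in both, and the call was lost without 0.20 mM replicate 1 (-0.25, adjusted p = 0.0635) or full medium replicate 3 (-0.20, adjusted p = 0.0554) and with the GC and length offset (-0.11, adjusted p = 0.343). HPRT1, which recycles hypoxanthine and guanine, had -0.08, adjusted p = 0.685 at 0.04 mM. UCK2, the uridine and cytidine kinase, had -0.14, adjusted p = 0.158 at 0.04 mM, and was called without full medium replicate 1 at 0.04 mM (-0.20, adjusted p = 0.0401) and 0.20 mM (-0.20, adjusted p = 0.0357).

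None of the 4 genes of PRPP supply was called at any concentration. PRPS1 and PRPS2, the PRPP synthetases, had -0.09, adjusted p = 0.572 and -0.20, adjusted p = 0.157 at 0.04 mM. PRPS2 was called with ERCC scaling at 0.12 mM (-0.38, adjusted p = 0.048), and without full medium replicate 1 at 0.04, 0.12 and 0.28 mM (-0.31, adjusted p = 0.0196, -0.31, adjusted p = 0.0226, and -0.34, adjusted p = 0.018). PRPSAP1, a regulatory partner of the synthetases, was above full medium in 12 of 12 limited libraries of the same number and did not overlap it at 0.28, 0.20 and 0.12 mM. It stood at 27.8, 24.8 and 26.5 CPM in full medium and 30.4, 32.5 and 33.6 CPM at 0.20 mM, without a call (0.28, SE 0.102, adjusted p = 0.057), and passed when genes had to reach 5 CPM in 3 libraries (0.28, adjusted p = 0.0465) and without the libraries over 1% mitochondrial rRNA (0.28, adjusted p = 0.0484). PRPSAP2 had -0.05, adjusted p = 0.842 at 0.04 mM.

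Groups that did not overlap were counted over all members too. At 0.04 mM 8 members were lower in all libraries than in full medium and 1 was higher, where 8.21% and 6.95% of all genes were. The counts were 9 and 1 at 0.12 mM (6.66% and 5.53% of all genes), 8 and 1 at 0.20 mM (8.4% and 7.15%), and 4 and 1 at 0.28 mM (4.95% and 4.34%). DTYMK, DUT and PFAS were among those at 0.04, 0.12 and 0.28 mM.

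Ratios of isozymes and partner subunits were compared between the 12 limited libraries and full medium with an exact permutation test within replicate numbers, two-sided, over 125 arrangements (smallest possible p 0.008), for 6 pairs. None of the 6 passed after adjustment. CTPS2 over CTPS1 had a log2 count ratio of -3.08 ± 0.156 in full medium and -2.78 ± 0.306 at 0.04 mM (SD, n = 3). The limited mean was higher than full medium by 0.24 (exact permutation p = 0.016, adjusted p = 0.096). PRPS2 over PRPS1 was lower in limited medium, by a difference of -0.13 (exact permutation p = 0.032, adjusted p = 0.096). The other 4 pairs, PRPSAP2 over PRPSAP1, ADSS1 over ADSS2, NME2 over NME1 and IMPDH1 over IMPDH2, had differences of -0.15, 0.40, -0.48 and 0.10, with exact permutation adjusted p of 0.211, 0.211, 0.211 and 0.536. ADSS1, NME2 and IMPDH2 had only 474, 378 and 621 counts over all libraries, and NME1 and NME2 share exons with NME1-NME2. The ratios that hold these genes are therefore uncertain.

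**Figure D4:**
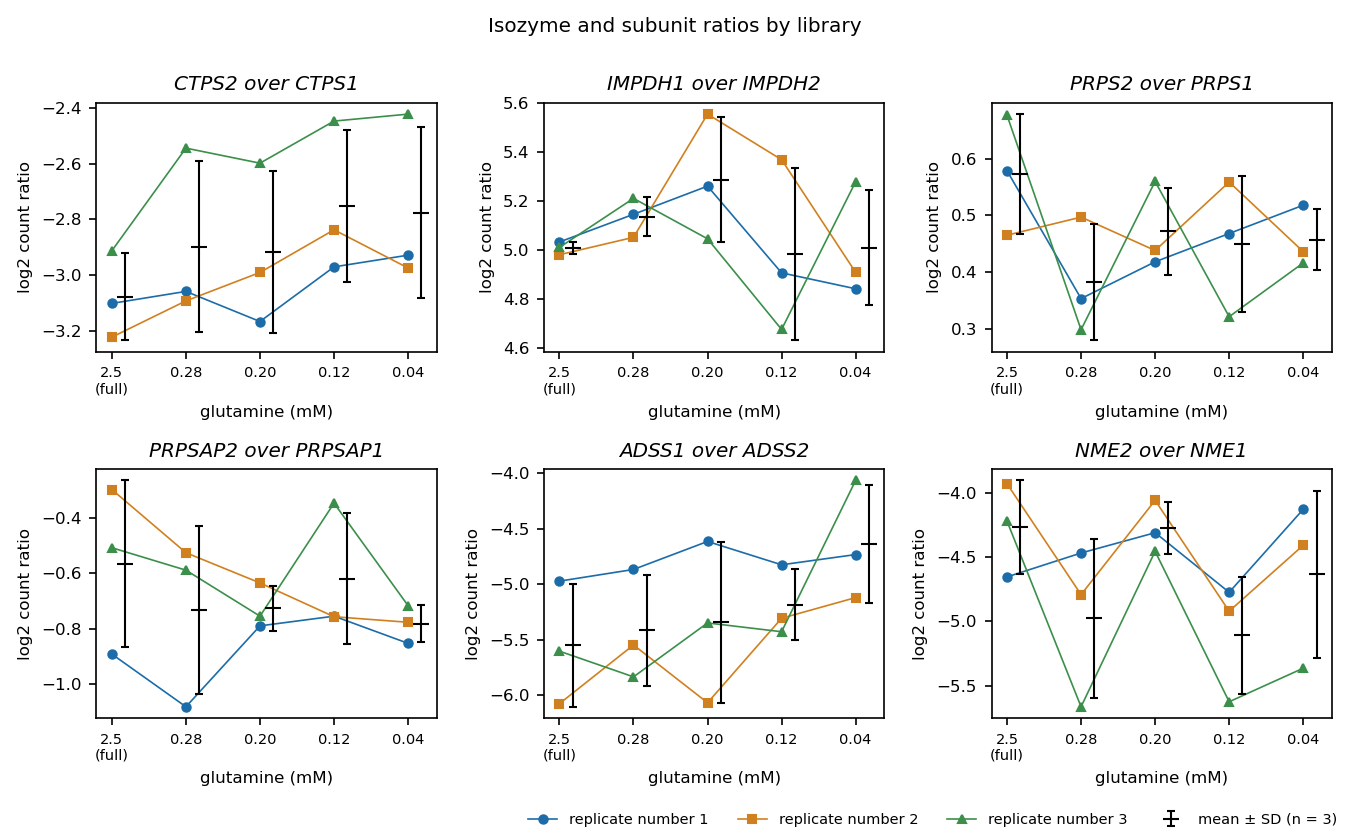
Log2 ratio of counts (0.5 added to each count) for 6 pairs of isozymes or partner subunits, by glutamine concentration, with 1 line per replicate number and the group mean ± SD (n = 3) in black. For CTPS2 over CTPS1 the mean goes from -3.08 in full medium to -2.78 at 0.04 mM, with replicate number 3 above the other numbers in every group.

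Per kilobase of exon, the levels in full medium ran from 0.474 CPM per kb for ADSS1 to 78.7 for APRT. GUK1 (74.6), RRM2 (65.3), TYMS (59.3) and PAICS (58.8) followed APRT, and ADSS1, NME2, IMPDH2, ADSL and DHODH were each below 3.75, the level of CTPS2. On this scale IMPDH1 was 24.4 times IMPDH2, and CTPS2 was 0.247 times CTPS1. The 6 members that use glutamine ran from CTPS2 over PPAT (9.93), CTPS1 (15.15), GMPS (16.7) and PFAS (18.95) to CAD (43.4 CPM per kb). Exon lengths are those of GENCODE 29 and count every annotated exon, so the order is approximate. Reads shared with genes that GENCODE 29 does not hold cannot be seen here, which bears on the low levels of IMPDH2, NME2 and ADSL.

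No member was called between limited concentrations. At 0.04 against 0.28 mM 0 members fell or rose in edgeR's test with the block (0.0289% and 0.0145% of all genes did) and 0 by DESeq2, with 3 members and 1247 of all genes at an unadjusted p under 0.05. NME1 had the smallest adjusted p there (-0.42, SE 0.101, adjusted p = 0.158). It passed without 0.04 mM replicate 1 (-0.57, adjusted p = 0.0372) and with no filter beyond 1 count (-0.44, adjusted p = 0.00245). NME1 also passed with the 2 compared groups alone (-0.42, adjusted p = 0.0294) and with thinned libraries (-0.51, adjusted p = 0.0244). ADSL, ATIC and NME1 were lower without overlap, and ADSS1 higher, where 3.3% and 2.73% of all genes were. Over the 12 limited libraries the slope per doubling of glutamine called 0 members and 0% of all genes with edgeR and 0 members with DESeq2, and 3 members and 1063 of all genes had an unadjusted p under 0.05. The members' median slope was 0.0197 per doubling.

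Gene lists for neighbouring pathways were read at 0.04 mM with the block. Of 15 genes of folate one-carbon metabolism, which supplies carbon to purines and to dTMP, 8 fell and 2 rose (median -0.1865). The folate carrier SLC19A1 fell from 102 ± 2.71 to 78.3 ± 10.8 CPM (-0.39, SE 0.0793, adjusted p = 0.00116). Of 8 genes of the pentose phosphate pathway, the source of ribose, 0 fell and 0 rose (median 0.0398).

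In a list of 8 other enzymes of glutamine use, which also holds CPS1, an enzyme that takes ammonia in place of glutamine, 2 rose and 0 fell at 0.04 mM. GFPT2, the entry enzyme of hexosamine synthesis, rose at each of the 4 limited concentrations (1.41, SE 0.139, adjusted p = 1.41e-07 at 0.04 mM). Of 17 nucleotide breakdown genes 4 rose and 2 fell at 0.04 mM. NT5E, the cell surface enzyme that makes adenosine from AMP, rose from 298 ± 63.3 to 474 ± 46.5 CPM (0.68, SE 0.0785, adjusted p = 1.05e-06) and also rose at the other limited concentrations (0.46, SE 0.0779, adjusted p = 0.00154 at 0.28 mM). NT5C, a nucleotidase for deoxynucleotides, fell from 32.7 ± 0.830 to 22.6 ± 2.23 CPM (-0.56, SE 0.121, adjusted p = 0.00195), and so did DCTPP1, which removes dCTP (-0.41, SE 0.0855, adjusted p = 0.00154).

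Of 21 genes of other salvage and phosphorylation steps, 1 rose and 1 fell. RRM2B, the alternative small subunit of ribonucleotide reductase known for service outside S phase, rose from 36.6 ± 3.53 to 46.7 ± 0.868 CPM (0.36, SE 0.0954, adjusted p = 0.01), and it rose at 0.20 mM as well (0.40, SE 0.0912, adjusted p = 0.00349). Among 6 carriers SLC25A36, which moves pyrimidine nucleotides into mitochondria, rose (0.49, SE 0.101, adjusted p = 0.00116), and among 9 genes of aspartate supply ASS1 rose and GOT1 fell. Of 11 regulators 0 rose and 2 fell, the S phase transcription factor E2F2 (-0.47, SE 0.161, adjusted p = 0.0481) and its partner TFDP1 (-0.23, SE 0.0623, adjusted p = 0.012). The other E2F genes of the list were not called. E2F1 had -0.01, adjusted p = 0.978, E2F3 0.24, adjusted p = 0.0854, E2F7 0.19, adjusted p = 0.12 and E2F8 -0.02, adjusted p = 0.964. MYC, a known driver of nucleotide synthesis genes, was not called, with a log2 change of -0.06.

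**Figure D5:**
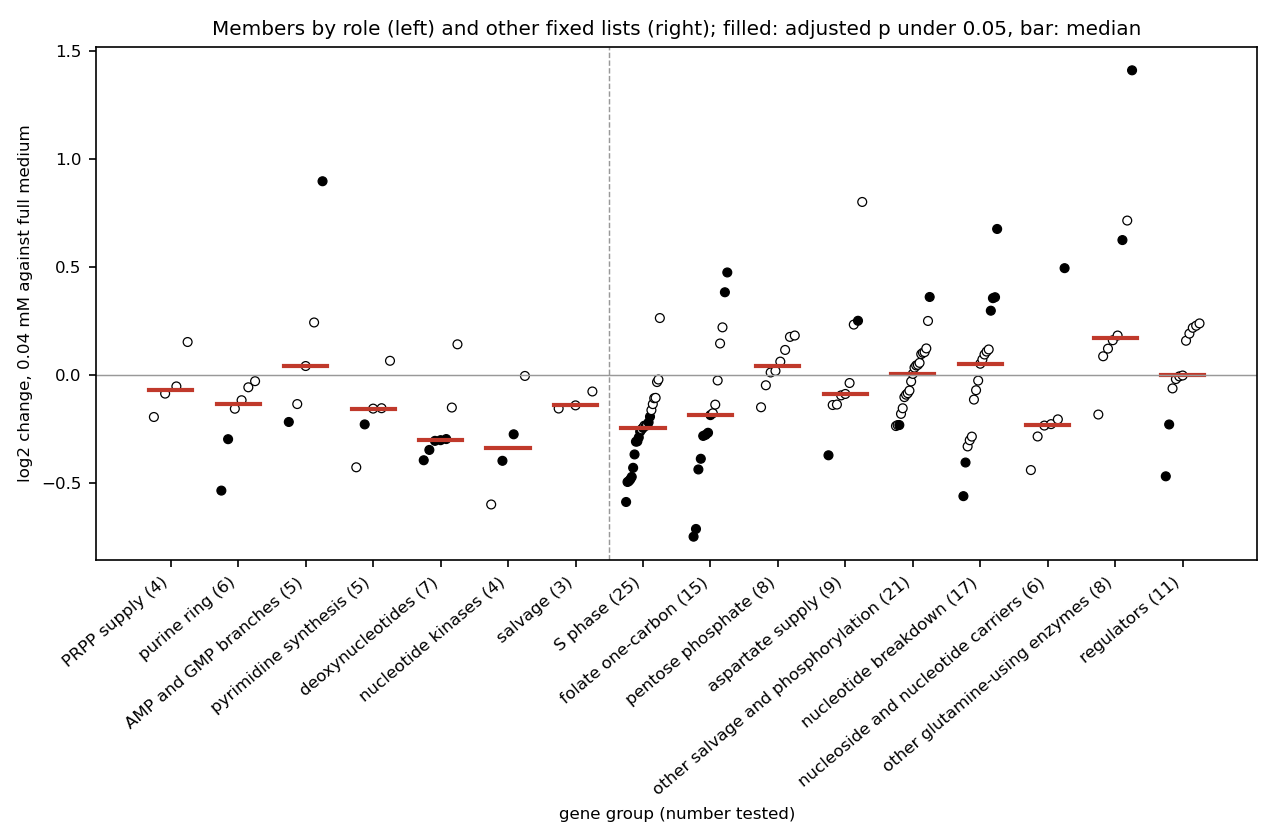
Log2 change at 0.04 mM against full medium, with the replicate block, of each tested gene in the 7 roles of the members (left of the dashed line) and in 9 other lists (right). Filled points passed the test and red bars are medians, which lie at -0.3024 for the deoxynucleotide genes, -0.2457 for S phase and -0.1865 for folate metabolism.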

How the data were processed

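The deposited table holds whole-number counts per gene and library, made by the authors, for 62754 Ensembl genes and 92 ERCC spike-ins; the submitters' processing notes name hg38 and GRCh38.p14. For the aligner, the counter and strandedness nothing is given in the sources used here. Library names tied the 15 columns to samples. Depth was 3704170 to 13361406 gene counts. Members and lists were chosen with earlier results of these data known, as were the motifs and the rule for adding the replicate block.

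Counts were tested with edgeR 4.0.16 (R 4.3.3): filterByExpr (minimum count 10, total 15; 13828 genes), TMM, 1 quasi-likelihood fit of 15 libraries, Benjamini-Hochberg adjusted p under 0.05. The planned fit has no block. Beside it stands a blocked fit (block: replicate number), since all 30 same-numbered pairs deviated together (r 0.184 to 0.489; other pairs -0.406 to 0.0549); what the numbers share is not stated. The labels call the replicates biological. CPM uses TMM-scaled totals. Coordinates and promoters are RefSeq GRCh38.p14; exon lengths and overlaps are GENCODE 29, which may differ from the annotation used for counting. All members are named. Non-members are named from the lists, up to 4 per list with the smallest adjusted p at 0.04 mM. MYC, E2F1, E2F3, E2F7 and E2F8 are named beyond this rule, after their values were seen. Some genes of these lists are not reported here. Protein sequences were not used here. Alternatives were DESeq2 1.42.0, its size factors, ERCC scaling, other filters, compared groups alone, thinning, GC and length offsets, and leaving out libraries. The code was tested on simulated data. Figures used matplotlib 3.10.9.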

Additional observations from a re-analysis of the deposited data

How the results depend on the processing

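With the replicate block the members that fell numbered 11 at 0.04 mM, 6 at 0.12 mM, 9 at 0.20 mM and 2 at 0.28 mM, with 1 rising at 0.04 and 1 at 0.20 mM, and with no replicate block 0 in every comparison. Scaling to ERCC left 0, 12, 1 and 2 falling in that order and 0 rising. Without number 3 in all groups 3, 0, 1 and 0 fell, and without the libraries over 1% mitochondrial rRNA 7 fell at 0.04 mM, 0 rose there and 2 rose at 0.20 mM. At 0.12 mM, without the libraries over 1%, CTPS1 (-0.21, adjusted p = 0.131), DUT (-0.27, adjusted p = 0.055) and TK1 (-0.28, adjusted p = 0.0781) lost their calls. GUK1 gained a call there (-0.34, adjusted p = 0.0132). A GC and length offset gave 5 falling and 0 rising at 0.20 mM and 4 falling at 0.28 mM. With the 2 compared groups alone 1 fell at 0.12 mM and 0 rose at 0.04 mM. At 0.04 mM that setting also ended the falls of ADSL (adjusted p = 0.0731), IMPDH1 (adjusted p = 0.112) and CTPS1 (adjusted p = 0.0836). DESeq2 ended those of ADSL (adjusted p = 0.069) and IMPDH1 (adjusted p = 0.0614) there. Smaller shifts in the counts of members are not all listed. Members rising at 0.04 mM were 0 with DESeq2 or thinned libraries and 2 with DESeq2 size factors in edgeR or no filter. A filter of 5 CPM gave 2 rising at 0.20 mM and 4 falling at 0.28 mM, and thinning 1 falling at 0.28 mM. At 0.04 against 0.28 mM 1 member, NME1, fell with no filter, with the compared groups alone and with thinning, against 0. With all 15 libraries, full medium included, the slope per doubling of glutamine was called above 0 for 12 members and below 0 for 2. A slope above 0 means a lower level at less glutamine. DUT (0.0553) and GUK1 (0.0477) then had the opposite sign to their slopes over the limited libraries. Leaving out 1 library at a time gave 4 to 15 falling at 0.04 mM, 2 to 11 at 0.12 mM, 4 to 12 at 0.20 mM, 0 to 9 at 0.28 mM and 0 to 1 at 0.04 against 0.28 mM, and 0 to 2, 0 to 1, 0 to 2 and 0 rising against full medium; the slope stayed at 0 of each, as did every count without the block. The most falling, 15, 11, 12 and 9, came without full medium replicate 1. Isozyme differences without 1 replicate number ranged from 0.160 to 0.329 for CTPS2 over CTPS1, 0.0239 to 0.141 for IMPDH1 over IMPDH2, -0.209 to -0.0607 for PRPS2 over PRPS1, -0.235 to -0.0363 for PRPSAP2 over PRPSAP1, 0.323 to 0.499 for ADSS1 over ADSS2 and -0.837 to -0.191 for NME2 over NME1. Of single gene results under alternatives 3416 kept their side of the threshold, 69 gained a call, 173 lost one and 2 reversed. The 3416 include results called under neither setting, whatever their sign, so they do not measure how stable the calls were. The 2 that reversed are the slopes of DUT and GUK1, which were not called over the limited libraries. Where no construction is named above, the cause of a change was not tested. The shallowest library held 3704170 counts, and ADSS1, NME2 and IMPDH2 had 474, 378 and 621 counts over all libraries.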
